A study of Mus musculus with 18 samples.

Results

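RNA levels of 10 genes of cytokine signalling were followed in 18 RNA-seq libraries of mouse germinal centre B cells. They are 5 receptor chains (Il4ra, Il21r, Il2rg, Il1r2 and Crlf2), 3 genes that STAT factors are known to induce (Fcer2a, Il4i1 and Pim1) and 2 feedback inhibitors (Socs1 and Cish). The genes were chosen by name, with earlier results of these comparisons known, and all 10 were found among the 30452 genes of the 12 h table and the 24 h table. Counts over the 10 genes are therefore a description and support no direction.

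All cells carried B1-8hi, a heavy chain that binds the hapten NP, and were sorted from the popliteal lymph node as light zone cells, with high CD83 and low CXCR4. C57BL/6 hosts had been primed with ovalbumin in alum 2 weeks before transfer of a B cell mixture, of which 15% were DECP and 85% DECN. Both populations shared each host, which was then immunized with NP-ovalbumin and on day 6 given an antibody to DEC205 fused to ovalbumin. The design asks how B cells that can take up this antigen, and so receive more T cell help, differ from neighbours that cannot. DECP cells were Ly75+/+ and CD45.1, with Ly75 being the gene of the endocytic receptor DEC205. DECN cells were Ly75-/- and CD45.1/2. At 12 h after the antibody there were 3 DECP and 3 DECN libraries. At 24 h there were 4 libraries of DECP cells from hosts that had also received 2.5 mg/kg rapamycin, which blocks mTORC1 signalling, together with the antibody, 4 of DECP cells and 4 of DECN cells. The labels give neither the age of the animals nor which libraries came from separate animals. The p-values therefore reflect spread among libraries alone, and that spread may be technical.

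Cytokines such as interleukin 4 and interleukin 21, which T follicular helper cells supply, bind paired receptor chains on the B cell and activate JAK kinases attached to them. The JAKs phosphorylate STAT factors, which enter the nucleus and switch on target genes, STAT6 mainly after interleukin 4, STAT3 after interleukin 21 and STAT5 after interleukin 2, interleukin 7 and the epithelial cytokine TSLP. SOCS family proteins, themselves STAT targets, then bind the receptor or the JAK and damp the signal.

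Levels are given in TPM, the share of transcripts per length scaled to a fixed sum, so levels of different genes can be set side by side. Between 13114 and 13597 genes had at least 1 TPM in a library at 12 h, and between 11128 and 12244 at 24 h. Ly75 averaged 32.6 ± 6.80 TPM in DECP cells, against 9.40 ± 0.816 TPM in DECN cells at 12 h (SD, n = 3 each, two-sided exact permutation p = 0.1, the smallest 3 against 3 can give). At 24 h it stood at 12.6 ± 4.65 TPM in rapamycin-treated DECP, 14.1 ± 3.28 TPM in DECP cells, against 5.01 ± 1.67 TPM in DECN cells (n = 4 each). There the exact permutation p was 0.02857 for either DECP group against DECN, the smallest 4 against 4 can give. With any 1 library of the pair of groups left out it was 0.05714, the smallest 3 against 4 can give. Ly75 RNA was detected in every group labelled Ly75-/-, at a lower mean. All 11 markers of germinal centre B cells were present at 1 TPM or more in at least 1 library of every group.

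Of the 10 genes, 9 passed the filter on low values at 12 h (at least 1 TPM in 3 libraries) and 9 at 24 h (in 4 libraries). Crlf2 failed it at 12 h and Cish at 24 h. A gene was called when its adjusted p, from limma on log2(TPM + 1) with Benjamini-Hochberg adjustment over all genes, was below 0.05. In DECP over DECN cells 1 of the 9 was called at 12 h, Il1r2, which was higher, where 2.89% of all 13429 genes tested were called and 1.84% were called higher. At 24 h 2 of the 9 were called, Fcer2a and Il4i1, both lower, against 4.04% of 12783 genes called and 1.32% called lower. In rapamycin-treated DECP over DECP cells 3 of the 9 were called, Crlf2, Fcer2a and Il4i1, all higher, against 2.18% of genes called and 0.657% called higher. In rapamycin-treated DECP over DECN cells 1 was called, Pim1, which was higher, against 1.31% of genes called and 0.774% called higher. The 24 h comparisons share libraries, so their values stand side by side and do not back each other.

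**Figure D1:**
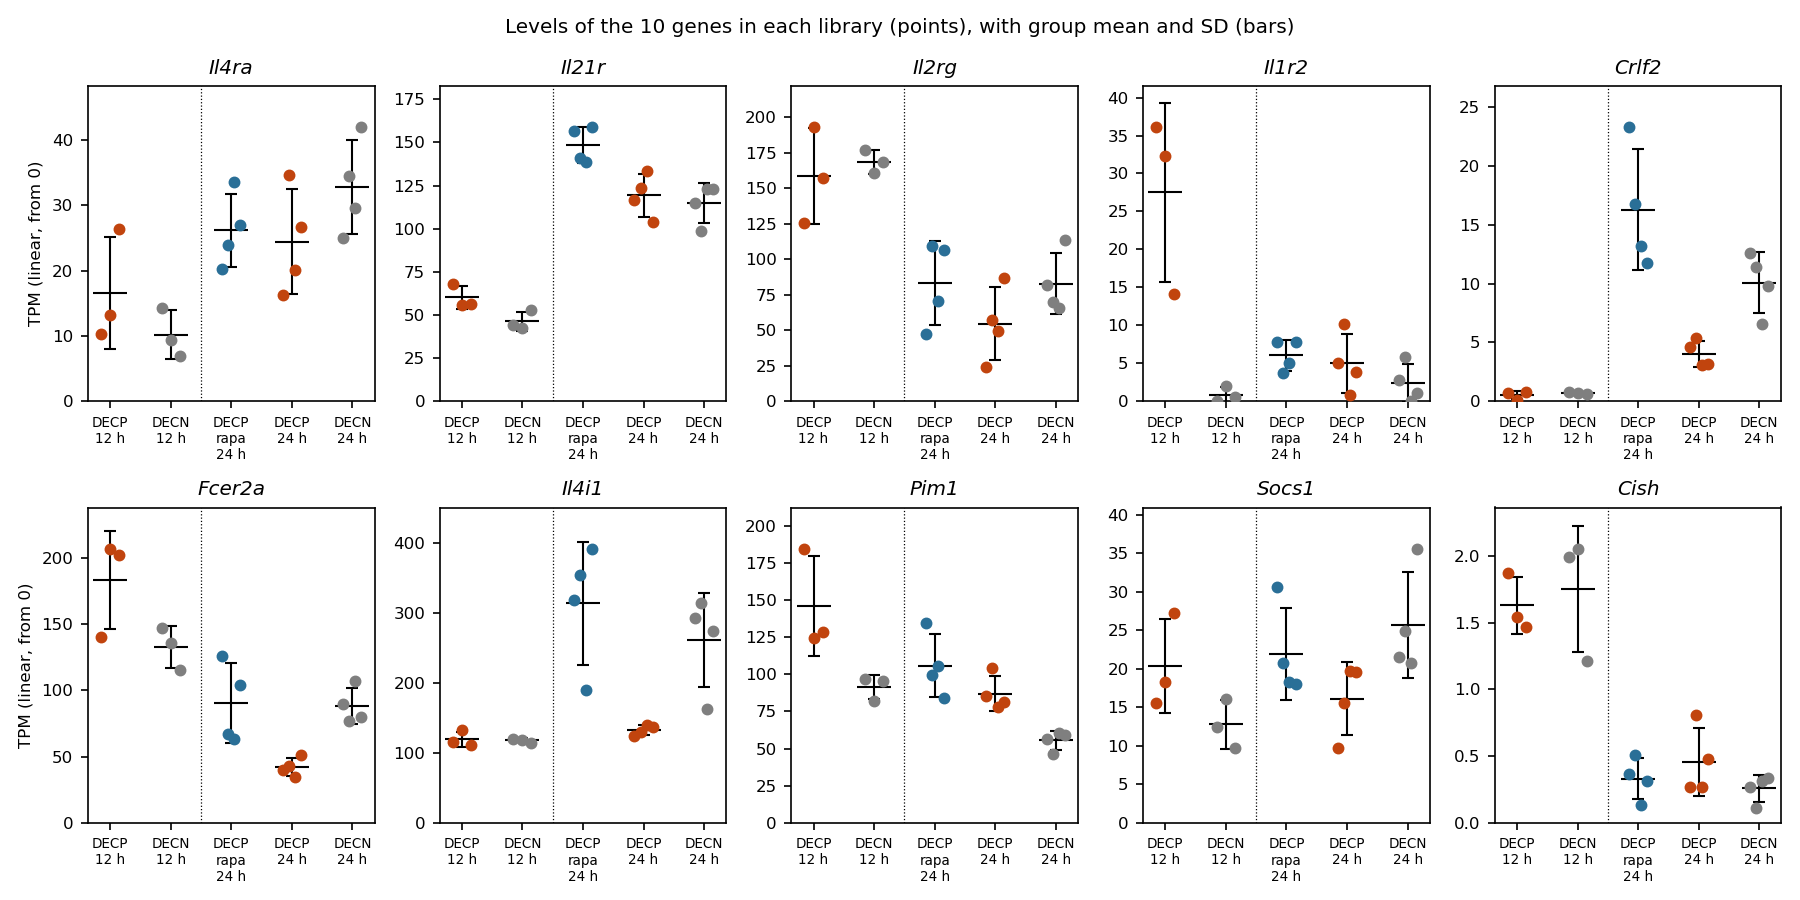
TPM (linear axis from 0) of each of the 10 genes in all 18 libraries, with points for libraries and bars for the group mean and SD. Left of the dotted line stand the DECP and DECN libraries at 12 h, right of it the rapamycin-treated DECP, DECP and DECN libraries at 24 h. Il1r2 is high in the 3 DECP libraries at 12 h, and Crlf2, Fcer2a and Il4i1 are lowest in the 4 untreated DECP libraries among the 24 h groups.

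The median log2 change of the 9 genes tested in DECP over DECN cells was 0.45 at 12 h and -0.66 at 24 h, while that of all genes tested was -0.05 and 0.00. In rapamycin-treated DECP over DECP cells the median of the 9 was 0.46 (all genes 0.02), and over DECN cells it was 0.26 (all genes 0.02). The values of the DECP and DECN libraries did not overlap for 3 of the 10 genes at 12 h, which were Il21r, Il1r2 and Pim1, where 26.3% of all genes tested did not overlap. At 24 h they did not overlap for 5, which were Crlf2, Fcer2a, Il4i1, Pim1 and Socs1, against 11.5% of genes. Rapamycin-treated DECP and DECP libraries did not overlap for Il21r, Crlf2, Fcer2a and Il4i1 (8.96% of genes), and rapamycin-treated DECP and DECN libraries for Il21r and Pim1 (8.57%).

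The first receptor chains are those of interleukin 4 and interleukin 21, whose genes are neighbours on chromosome 7. Il4ra (ENSMUSG00000030748, GRCm38 chr7:125552120-125579474, forward strand) encodes the ligand-binding alpha chain for interleukin 4. Il21r (ENSMUSG00000030745, chr7:125603429-125633570, forward strand) encodes the chain that binds interleukin 21, and 23954 bases without another protein-coding gene lie between the pair. Il2rg (ENSMUSG00000031304, chrX:101264378-101268255, reverse strand) encodes the common gamma chain, which pairs with both.

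Il4ra was at 10.3, 13.1 and 26.4 TPM in DECP libraries, against 14.3, 9.35 and 6.93 TPM in DECN libraries at 12 h. The 24 h libraries held 20.3, 24.0, 33.5 and 26.9 TPM in rapamycin-treated DECP, 16.3, 34.7, 20.1 and 26.7 TPM in DECP, and 25.0, 34.5, 29.5 and 41.9 TPM in DECN libraries. Groups overlapped at both times, and none of the 4 comparisons was called (log2 changes 0.60 and -0.44 for DECP over DECN at 12 h and 24 h, 0.13 and -0.31 for rapamycin-treated DECP over DECP and DECN).

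Il21r was the most abundant of the 5 receptor transcripts at 24 h. It measured 157, 141, 139 and 159 TPM in rapamycin-treated DECP, 117, 124, 134 and 104 TPM in DECP, and 115, 98.8, 123 and 123 TPM in DECN libraries. Every rapamycin-treated library lay above all 8 others, although neither difference was called (log2 change 0.32, SE 0.13, adjusted p = 0.259 over DECP and 0.37, SE 0.13, adjusted p = 0.210 over DECN). At 12 h Il21r was at 68.1, 56.0 and 56.6 TPM in DECP libraries, against 44.4, 42.3 and 52.7 TPM in DECN libraries. Here the groups were apart, again without a call (0.37, SE 0.20, adjusted p = 0.370).

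Il2rg spread widely within each group at 24 h. It ranged from 47.3 to 109 TPM in rapamycin-treated DECP, 24.4 to 86.9 TPM in DECP and 65.5 to 113 TPM in DECN libraries, the lowest value being DECP replicate 1, which is also the library with the fewest detected genes. The log2 change of DECP over DECN was -0.69 (95% interval -1.46 to 0.07, adjusted p = 0.342). At 12 h Il2rg averaged 159 ± 33.8 TPM in DECP cells, against 169 ± 8.22 TPM in DECN cells (n = 3 each, log2 change -0.11, adjusted p = 0.819). An annotated readthrough gene on the same strand, Gm20489, overlaps Il2rg and averaged 0.0321 TPM at 12 h and 0.142 TPM at 24 h.

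Il1r2 (ENSMUSG00000026073, chr1:40074079-40125231, forward strand) encodes the type II interleukin 1 receptor, a decoy that binds interleukin 1 and does not signal. At 12 h it was at 36.1, 32.3 and 14.1 TPM in DECP libraries, against 0.00, 2.04 and 0.567 TPM in DECN libraries. Every DECP library stood far above every DECN library, 1 of which was listed at 0. The means were 27.5 ± 11.7 and 0.870 ± 1.06 TPM (n = 3 each), a ratio of 31.6, and the log2 change of TPM + 1 was 3.98 (SE 0.52, adjusted p = 0.0179). Il1r2 passed the filter through the DECP libraries alone. The call was lost without DECP replicate 1 or 2 or without any 1 DECN library (log2 change 3.603 to 4.41, adjusted p from 0.0596 to 0.0820), and with no filter on low values (adjusted p = 0.0671). In bulk libraries like these a change in the share of cells that express a gene and a change in RNA per cell cannot be told apart.

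At 24 h Il1r2 stood at 7.76, 3.71, 5.01 and 7.77 TPM in rapamycin-treated DECP, 4.97, 10.2, 0.870 and 3.88 TPM in DECP, and 2.73, 5.82, 0.00 and 1.12 TPM in DECN libraries. All 3 groups overlapped, and DECP over DECN gave a log2 change of 0.87 (95% interval -0.42 to 2.17, adjusted p = 0.511). The difference between the 24 h and the 12 h change of Il1r2, fitted over all 18 libraries, was -3.10 (SE 0.90, unadjusted p = 0.00307) and was not called (adjusted p = 0.148). Il1r2 is also abundant in neutrophils, and 7 of the 9 neutrophil markers (S100a8, S100a9, Ly6g, Retnlg, Mmp9, Camp and Ngp) were under 1 TPM in every 12 h library. The other 2 were Cxcr2, with 20.1 TPM in DECP cells against 24.4 TPM in DECN cells, and Csf3r, with 2.78 TPM against 3.92 TPM, and neither was called. The summed level of all 9 was 20.1 to 27.2 TPM in DECP and 22.3 to 32.1 TPM in DECN libraries, and the part of neutrophil RNA in the Il1r2 values was not tested. Its signalling counterpart Il1r1 averaged 1.13 ± 0.163 TPM in DECP cells, against 0.948 ± 0.135 TPM in DECN cells at 12 h.

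The RefSeq start region of Il1r2 holds a match to TTCNNNGAA at positions -111 to -103 from the annotated start. That start lies inside the gene span given above, and the 250 bases before it (chr1:40085843-40086092) overlap an annotated exon. STAT dimers such as STAT3 and STAT5 are known to bind the palindrome TTCNNNGAA. STAT6 is known to prefer the same ends, TTC and GAA, around a spacer that is 1 base longer. Both motifs read the same on either strand, and no stretch can match both at once. The 250 bases before each start were searched for the 10 genes in RefSeq (GRCm38.p6), 13 start sites in all, and 2 sites held a match, 1 of Il1r2 and 1 of Fcer2a. Among all 32851 RefSeq promoters, 7.02% held the first motif, 5.85% the second and 12.4% either. A match describes letters only. The 30 bases around the Il1r2 match (chr1:40085972-40086001, forward strand) are shown because this gene has the largest 12 h difference, with the match in capitals.
Il1r2: cgggtgctttTTCAAGGAActtccgactac

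Crlf2 (ENSMUSG00000033467, chr5:109554709-109558993, reverse strand) encodes the TSLP-binding receptor chain. It was below 1 TPM in all 6 libraries at 12 h, at most 0.772 TPM in DECP and 0.800 TPM in DECN. Levels at 24 h were 23.3, 16.8, 13.2 and 11.8 TPM in rapamycin-treated DECP, 4.58, 5.34, 3.06 and 3.13 TPM in DECP, and 12.6, 11.4, 6.54 and 9.81 TPM in DECN libraries. The 4 untreated DECP libraries were the lowest of all 12, and both other groups lay wholly above them.

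Crlf2 averaged 16.3 ± 5.14 TPM in rapamycin-treated DECP and 4.03 ± 1.12 TPM in DECP cells (n = 4 each), a ratio of 4.04. It rose with rapamycin (log2 change 1.76, SE 0.30, adjusted p = 0.0104), and this call held with each library left out in turn and was lost only when limma was run with no intensity trend (adjusted p = 0.0682). Against the DECN mean of 10.1 ± 2.62 TPM, DECP cells gave a log2 change of -1.13 (SE 0.30, adjusted p = 0.0501), just past the threshold. That value fell below it without DECN replicate 3 (adjusted p = 0.0392) or without rapamycin-treated DECP replicate 1 (0.0480). With each library left out in turn it rose to as much as 0.127. Rapamycin-treated DECP over DECN cells gave 0.63 (95% interval -0.010 to 1.27, adjusted p = 0.385). Il7r, the partner chain in the TSLP receptor, averaged 0.359 ± 0.154 TPM in rapamycin-treated DECP, 0.228 ± 0.116 TPM in DECP cells, against 0.226 ± 0.0868 TPM in DECN cells, all below the filter.

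The first STAT-induced gene, Fcer2a (ENSMUSG00000005540, chr8:3681737-3694175, reverse strand), encodes CD23, the low-affinity IgE receptor, which interleukin 4 induces through STAT6 and which marks follicular B cells. Its 24 h levels were 126, 67.1, 63.3 and 104 TPM in rapamycin-treated DECP, 39.9, 43.1, 34.4 and 50.8 TPM in DECP, and 89.5, 76.7, 107 and 80.0 TPM in DECN libraries. All 4 DECP libraries were below the other 8. Fcer2a averaged 42.1 ± 6.87 TPM in DECP cells, against 88.3 ± 13.6 TPM in DECN cells (n = 4 each), so it fell by 1.05 on the log2 scale (SE 0.22, adjusted p = 0.0200). This call was lost without DECP replicate 1, DECP replicate 3 or DECN replicate 3 (adjusted p from 0.0593 to 0.0661), and with no intensity trend (0.0566).

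With rapamycin Fcer2a averaged 90.2 ± 30.3 TPM, and it rose over untreated DECP cells (log2 change 1.04, SE 0.22, adjusted p = 0.0309). Here the call was lost without DECP replicate 1, 2 or 3 or rapamycin-treated DECP replicate 1 or 4 (adjusted p from 0.0675 to 0.0969). It was lost also with no filter (0.0708), with no intensity trend (0.136) and when only these groups were fitted (0.0712). Between rapamycin-treated DECP and DECN cells the log2 change was -0.017 (95% interval -0.50 to 0.47). At 12 h Fcer2a was at 140, 207 and 202 TPM in DECP libraries, against 147, 136 and 116 TPM in DECN libraries. DECP replicate 1 lay among the DECN values, and there was no call (0.45, SE 0.21, adjusted p = 0.302). The change at 24 h minus the change at 12 h was -1.499 (SE 0.33, adjusted p = 0.0424). Fcer2a was the only 1 of the 10 genes called in that comparison, where 0.776% of 15085 genes were called and 0.583% were called lower. This call was lost without any 1 of 13 libraries (adjusted p from 0.0516 to 0.111), namely DECP replicates 2 and 3 and DECN replicates 1 to 3 at 12 h and, at 24 h, DECP replicates 1 to 3, DECN replicates 1 to 4 and rapamycin-treated DECP replicate 4. No filter, median centring, rescaled TPM or no intensity trend ended it too (0.0527 to 0.0946).

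Fcer2a has 3 annotated start sites in RefSeq, and the second holds the longer STAT6 motif at positions -168 to -159. This second start lies inside the gene span given above. Its 250 bases before the start (GRCm38.p6, chr8:3690862-3691111, reverse strand, match in capitals) are set beside those of Crlf2 (chr5:109558994-109559243, reverse strand), which holds neither motif, because the RNA levels of these genes were lowest in the same 4 libraries at 24 h. GC content was 54.4% in the Fcer2a stretch and 71.6% in that of Crlf2.
Fcer2a: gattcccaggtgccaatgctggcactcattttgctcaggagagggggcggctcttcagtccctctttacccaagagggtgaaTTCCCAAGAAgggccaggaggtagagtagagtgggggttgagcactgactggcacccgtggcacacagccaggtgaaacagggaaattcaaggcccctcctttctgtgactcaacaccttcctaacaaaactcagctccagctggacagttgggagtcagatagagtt
Crlf2: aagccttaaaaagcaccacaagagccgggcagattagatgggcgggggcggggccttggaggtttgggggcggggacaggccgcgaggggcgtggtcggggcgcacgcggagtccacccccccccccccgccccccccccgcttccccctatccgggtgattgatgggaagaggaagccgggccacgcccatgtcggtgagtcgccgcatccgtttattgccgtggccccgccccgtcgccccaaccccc

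Il4i1 (ENSMUSG00000074141, chr7:44816387-44840809, forward strand) encodes interleukin 4 induced 1, a secreted amino acid oxidase. It had the highest mean of the 10 transcripts in all 3 groups at 24 h. Libraries held 318, 354, 190 and 392 TPM in rapamycin-treated DECP, 124, 129, 139 and 137 TPM in DECP, and 293, 314, 163 and 274 TPM in DECN. The DECP libraries were tightly grouped and below every other library. Il4i1 averaged 132 ± 6.84 TPM in DECP cells, against 261 ± 67.5 TPM in DECN cells (n = 4 each), and fell by 0.93 on the log2 scale (SE 0.23, adjusted p = 0.0413). That call was lost without any 1 DECP library, DECN replicate 1, 2 or 4, or rapamycin-treated DECP replicate 1 (adjusted p from 0.0574 to 0.114), and with the second index as a term (0.0510), median centring (0.0519), TPM rescaled without immunoglobulin, mitochondrial and ribosomal protein genes (0.0527), no intensity trend (0.1002) or no filter (0.102).

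With rapamycin Il4i1 averaged 313 ± 87.6 TPM and rose over untreated DECP cells (log2 change 1.19, SE 0.23, adjusted p = 0.0212). The call was lost without DECP replicate 1, 2 or 3 or rapamycin-treated DECP replicate 1, 2 or 4 (adjusted p from 0.0529 to 0.0632), with no filter (0.0570) and with no intensity trend (0.120). Over DECN cells the change was 0.26 (95% interval -0.24 to 0.76, adjusted p = 0.711). At 12 h Il4i1 was at 115, 132 and 111 TPM in DECP libraries, against 120, 118 and 114 TPM in DECN libraries, which overlapped (log2 change 0.015, 95% interval -0.37 to 0.40).

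Il4i1 overlaps 3 other protein-coding genes, Nup62 on the same strand and Tbc1d17 and Atf5 on the opposite one, and the library kit does not mark strand, so its reads are uncertain. Nup62, a nuclear pore gene, averaged 42.7 ± 18.1 TPM in rapamycin-treated DECP, 36.2 ± 23.4 TPM in DECP cells, against 22.8 ± 15.4 TPM in DECN cells at 24 h and was called in no comparison (adjusted p from 0.527 to 0.922). Tbc1d17 averaged 18.7 ± 6.95, 15.8 ± 4.52 and 20.6 ± 8.999 TPM in the same order of groups and was not called either.

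Pim1 (ENSMUSG00000024014, chr17:29490753-29496112, forward strand) encodes a serine/threonine survival kinase that STAT3 and STAT5 induce. It was at 185, 125 and 128 TPM in DECP libraries, against 96.7, 82.1 and 95.3 TPM in DECN libraries at 12 h. The 24 h levels were 134, 99.2, 105 and 83.9 TPM in rapamycin-treated DECP, 85.4, 104, 77.7 and 81.2 TPM in DECP, and 56.4, 46.1, 60.5 and 58.8 TPM in DECN libraries. At both times every DECP library was above every DECN library, with or without rapamycin.

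Pim1 averaged 106 ± 21.2 TPM in rapamycin-treated DECP and 55.5 ± 6.45 TPM in DECN cells (n = 4 each), and it rose (log2 change 0.91, SE 0.17, adjusted p = 0.0252). The call was lost without DECN replicate 1, 2 or 4 or rapamycin-treated DECP replicate 1, 2 or 3 (adjusted p from 0.0512 to 0.0808), and with no intensity trend (0.0983). In untreated DECP cells the mean was 87.1 ± 11.7 TPM, and the log2 change over DECN of 0.64 (SE 0.17) narrowly missed the threshold (adjusted p = 0.0513). With each library left out in turn the adjusted p ran from 0.0432, without rapamycin-treated DECP replicate 1, to 0.140. Rapamycin-treated DECP over DECP cells gave 0.27 (95% interval -0.10 to 0.63, adjusted p = 0.544). At 12 h the change was 0.65 (SE 0.21, unadjusted p = 0.0172, adjusted p = 0.149). The 24 h change minus the 12 h change was -0.0095 (95% interval -0.55 to 0.54).

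Of the feedback inhibitors, Socs1 (ENSMUSG00000038037, chr16:10782240-10785536, reverse strand) encodes a protein that blocks JAK kinases. Its levels at 24 h were 30.6, 20.7, 18.3 and 17.98 TPM in rapamycin-treated DECP, 9.65, 15.6, 19.8 and 19.5 TPM in DECP, and 21.5, 24.9, 20.7 and 35.6 TPM in DECN libraries. Each DECP library was below each DECN library, by a narrow margin. The log2 change of DECP over DECN was -0.66 (SE 0.28, unadjusted p = 0.0333, adjusted p = 0.230). At 12 h Socs1 averaged 20.4 ± 6.11 TPM in DECP cells, against 12.8 ± 3.20 TPM in DECN cells (n = 3 each), with overlapping libraries (0.62, SE 0.32, adjusted p = 0.329). The difference between the times was -1.28 (SE 0.42, unadjusted p = 0.00697, adjusted p = 0.221).

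Cish (ENSMUSG00000032578, chr9:107296026-107302784, forward strand), a STAT5 target whose protein CIS competes for receptor docking sites, was the scarcest of the 10 except for Crlf2 and, in DECN cells, Il1r2 at 12 h. It averaged 1.63 ± 0.213 TPM in DECP cells, against 1.75 ± 0.472 TPM in DECN cells (n = 3 each, log2 change -0.05, adjusted p = 0.933). All 12 libraries at 24 h were below 1 TPM, at most 0.509 TPM in rapamycin-treated DECP, 0.809 TPM in DECP and 0.333 TPM in DECN.

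**Figure D2:**
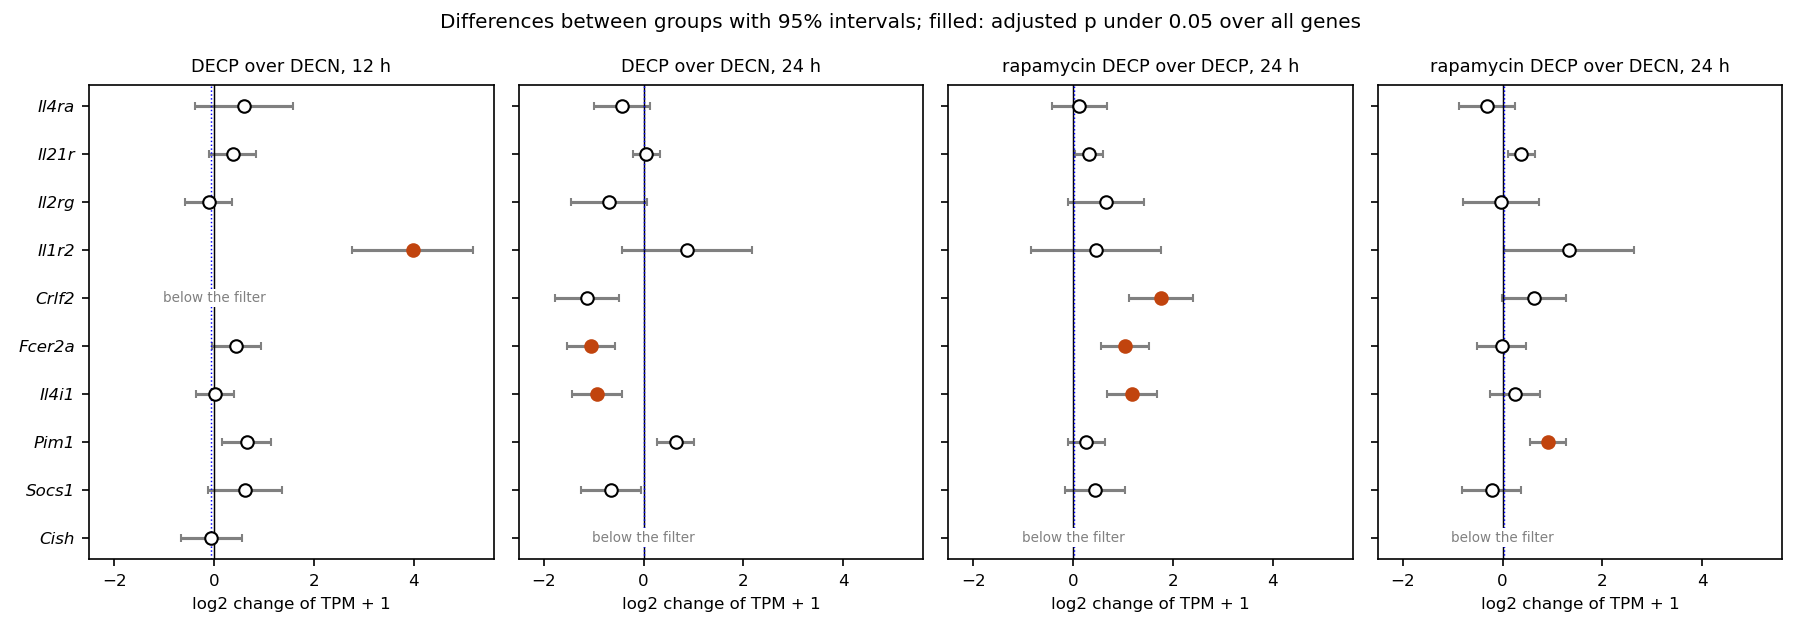
Log2 change of TPM + 1 (horizontal axis) with 95% intervals for the 10 genes in the 4 comparisons. Filled points had an adjusted p below 0.05 over all genes, the dotted line is the median of all genes tested, and genes below the filter are marked. Il1r2 stands at 3.98 in the 12 h panel, and Fcer2a and Il4i1 are filled on the negative side for DECP over DECN at 24 h and on the positive side for rapamycin-treated DECP over DECP.

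In the order of their 24 h levels within a group, Il4i1, Il21r and Pim1 led in rapamycin-treated DECP cells with means of 313, 149 and 106 TPM, and Crlf2, Il1r2 and Cish were last with 16.3, 6.06 and 0.330 TPM. Il4i1 and Il21r had overlapping libraries in untreated DECP cells, where their means were 132 and 119 TPM. Pim1, Il2rg and Fcer2a followed there with 87.1, 54.6 and 42.1 TPM, Il2rg overlapping both others. In DECN cells Fcer2a and Il2rg, at 88.3 and 82.8 TPM, stood above Pim1 at 55.5 TPM, and the Fcer2a libraries did not overlap those of Pim1.

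The 24 h libraries carried 2 second indices, called A and B here, with 2 libraries of each group on each, and the labels do not say whether the index marks a batch. For DECP over DECN the Fcer2a difference was -0.97 within index A and -1.14 within B, that of Il4i1 was -1.13 and -0.73, and that of Crlf2 was -1.66 and -0.60, on the log2 scale. For rapamycin-treated DECP over DECP the Crlf2 difference was 1.72 in A and 1.80 in B, that of Il4i1 was 0.98 and 1.40, and that of Fcer2a was 0.94 and 1.13. For these genes the compared groups did not overlap over all their libraries. None of these 12 values within an index could therefore show overlap. The Pim1 difference of rapamycin-treated DECP over DECN was 0.87 in A and 0.94 in B. Il1r2 went the other way in the 2 indices for DECP over DECN, at -0.74 in A and 2.49 in B.

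**Figure D3:**
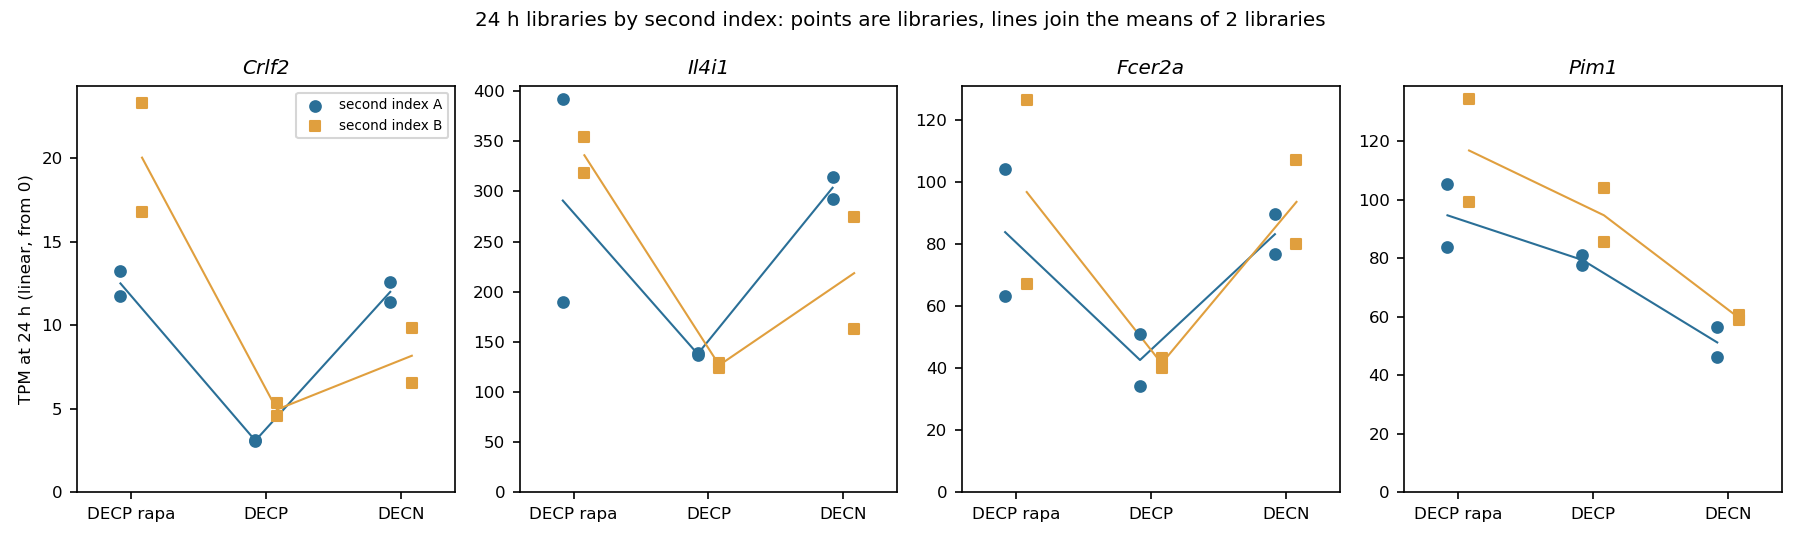
TPM at 24 h (linear axis from 0) of Crlf2, Il4i1, Fcer2a and Pim1 in single libraries of rapamycin-treated DECP, DECP and DECN cells, with circles for second index A, squares for B and lines joining the means of 2 libraries. Crlf2, Il4i1 and Fcer2a dip in untreated DECP cells on both indices, while Pim1 is lowest in DECN cells on both.

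Levels of other B cell markers at 24 h are set beside Fcer2a, which also marks follicular B cells. The summed level of 8 follicular and memory B cell markers was 97.1 to 133 TPM in rapamycin-treated DECP, 44.1 to 90.7 TPM in DECP and 63.3 to 105 TPM in DECN libraries. The DECP and DECN sums overlapped, while every rapamycin-treated DECP sum lay above every DECP sum. The median log2 change of the 8 markers was -0.49 for DECP over DECN and 0.67 for rapamycin-treated DECP over DECP. All genes had 0.00 and 0.02 there. Of the 8 markers Klf2 alone was called lower in DECP than in DECN cells, where 1.32% of all genes were called lower. Cd38 averaged 30.1 TPM in DECP cells, against 30.4 TPM in DECN cells, and Ccr7 was under 1 TPM in every DECP library. The summed level of 11 germinal centre markers was 3357 to 3999 TPM in rapamycin-treated DECP, 2451 to 3076 TPM in DECP and 3768 to 4785 TPM in DECN libraries. Among them Cd79a, Ms4a1 and Cd79b were called lower in DECP than in DECN cells. Cd79a and Cd79b were also called higher in rapamycin-treated DECP than in DECP cells, where none of the 11 was called lower. Of all genes 1.32% were called lower for DECP over DECN and 0.657% higher for rapamycin-treated DECP over DECP. The median log2 change of the 11 was -0.51 and 0.18 in that order, where all genes had 0.00 and 0.02. The part of these marker levels in the values of Fcer2a, Il4i1 and Crlf2 was not tested.

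T cell markers summed to 32.6 to 51.0 TPM in rapamycin-treated DECP, 38.1 to 63.6 TPM in DECP and 19.0 to 25.6 TPM in DECN libraries at 24 h. Of the 11 genes 2 passed the filter, and Cd3d alone was called, higher in both DECP groups than in DECN cells, at means of 36.5 TPM with rapamycin and 41.1 TPM without, against 16.1 TPM in DECN cells. Of all genes 4.04% were called for DECP over DECN and 1.31% for rapamycin-treated DECP over DECN. Cd28, Cd40lg, Foxp3 and Ctla4 were under 1 TPM in all 12 libraries. Cd3d made up most of the sum. Cd4 and Cd3e had lower means in both DECP groups than in DECN cells. Cd4 averaged 1.49 TPM with rapamycin and 1.43 TPM without, against 2.22 TPM in DECN cells, and Cd3e averaged 0.374 and 0.711 TPM, against 1.14 TPM in DECN cells. The part of T cell RNA in the Pim1 values was not tested. Ligand genes of these receptors were scarce: of 10 on the list none passed the filter at 24 h and 2 passed at 12 h, and Il4 was listed at 0 in all 12 libraries at 24 h.

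Other genes of the pathway were read from lists that were likewise chosen with earlier results known. None of the 11 JAK kinases and STAT factors, all of which passed the filter, was called by limma in any of the 4 comparisons. Over all genes between 1.31% and 4.04% were called in these comparisons. Those with an unadjusted p below 0.05 numbered 4 for DECP over DECN at 12 h, 0 at 24 h, 2 for rapamycin-treated DECP over DECP and 1 over DECN. Over all genes there were 2673 of 13429 at 12 h and, of 12783 at 24 h, 2261, 1776 and 1702 in the same order. These all-gene numbers apply to each list below. Jak1, which attaches to the common gamma chain's partners, was the most abundant of them at 12 h, with 639 ± 21.7 TPM in DECP cells, against 888 ± 60.1 TPM in DECN cells. Stat6, which carries the interleukin 4 signal, averaged 12.3 ± 5.40 TPM in rapamycin-treated DECP, 12.4 ± 2.77 TPM in DECP cells, against 9.28 ± 6.07 TPM in DECN cells at 24 h.

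Among 48 other cytokine receptor chains 34 passed the filter at 12 h and 31 at 24 h. Lifr, the leukaemia inhibitory factor receptor chain, was the only 1 called, at 12 h, where 2.89% of all genes were called. It fell at 12 h, with 14.5 ± 4.98 TPM in DECP cells, against 90.4 ± 36.8 TPM in DECN cells (log2 change -2.54, SE 0.36, adjusted p = 0.0213). At an unadjusted p below 0.05 there were 6 of the 34 chains at 12 h, where 2673 of all 13429 genes were. At 24 h there were 4 of the 31 for DECP over DECN, 4 for rapamycin-treated DECP over DECP and 2 over DECN. Over all 12783 genes there were 2261, 1776 and 1702 in that order. Neither the 4 tested adaptors of the interleukin 4 and gamma chain receptors nor the genes of the interleukin 1 pathway (10 tested at 12 h, 9 at 24 h) held a call by limma. Of the adaptors 1 had an unadjusted p below 0.05, for rapamycin-treated DECP over DECP, and 0 had one in each other comparison. Unadjusted p was below 0.05 for 2 of the interleukin 1 genes at 12 h, 0 for DECP over DECN at 24 h, 2 for rapamycin-treated DECP over DECP and 1 over DECN.

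Among 15 further SOCS, phosphatase and PIAS genes, brakes on JAK-STAT signalling, 2 fell and 1 rose in DECP over DECN cells at 24 h. Of all genes 4.04% were called in that comparison and 1.32% were called lower. Ptpn6, the phosphatase SHP-1, averaged 410 ± 37.0 TPM in DECP cells, against 672 ± 43.7 TPM in DECN cells (log2 change -0.71, SE 0.11, adjusted p = 0.00331). Ptpn6 was lower also in rapamycin-treated DECP, at 434 ± 58.8 TPM, than in DECN cells (-0.63, SE 0.11, adjusted p = 0.0184). Pias4 fell (-0.85, SE 0.19, adjusted p = 0.0258) and Pias2 rose (1.69, SE 0.43, adjusted p = 0.0459), both being PIAS proteins that inhibit STAT factors. At 12 h none of the 14 tested was called by limma, and 4 had an unadjusted p below 0.05.

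Of 12 tested STAT5-induced genes 2 rose in DECP over DECN cells at 12 h, where 1.84% of all genes were called higher. Ccnd2, which encodes cyclin D2, averaged 194 ± 57.6 TPM in DECP cells, against 26.5 ± 16.4 TPM in DECN cells (log2 change 2.98, SE 0.47, adjusted p = 0.0276). Pim3, a kinase of the same family as Pim1, averaged 4.52 ± 0.604 TPM in DECP cells, against 0.871 ± 0.651 TPM in DECN cells (1.61, SE 0.31, adjusted p = 0.0455). At 24 h Myc rose in rapamycin-treated DECP over DECN cells (1.66, SE 0.36, adjusted p = 0.0452), where 0.774% of all genes were called higher. For DECP over DECN at 24 h the list held no call, with 3 genes at an unadjusted p below 0.05. There were 5 such genes at 12 h, 1 for rapamycin-treated DECP over DECP and 6 over DECN. List medians were 0.46 and -0.10 for DECP over DECN at 12 h and 24 h, where all genes had -0.05 and 0.00. They were 0.27 for rapamycin-treated DECP over DECP and 0.50 over DECN, where all genes had 0.02 in each.

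The 8 tested genes that interleukin 4 induces through STAT6 held 2 calls at 24 h, the class II chains H2-Aa and H2-Ab1. Of all genes 1.32% were called lower for DECP over DECN and 0.657% higher for rapamycin-treated DECP over DECP. H2-Aa averaged 4929 ± 228 TPM in rapamycin-treated DECP, 3450 ± 424 TPM in DECP cells, against 5503 ± 334 TPM in DECN cells (n = 4 each). It fell in DECP over DECN cells (log2 change -0.68, SE 0.09, adjusted p = 0.00118) and rose with rapamycin over DECP cells (0.52, SE 0.09, adjusted p = 0.00942). H2-Ab1 fell and rose likewise, with log2 changes of -0.56 (adjusted p = 0.00125) and 0.41 (adjusted p = 0.0155). The median of the whole list was -0.23 for DECP over DECN and 0.22 for rapamycin-treated DECP over DECP, where all genes had 0.00 and 0.02. Of the 8 genes 3 had a change above 0 for DECP over DECN and 5 for rapamycin-treated DECP over DECP. Unadjusted p by limma was below 0.05 for 6 and 3 of the 8 in that order. It was below 0.05 for 5 at 12 h and for 3 in rapamycin-treated DECP over DECN.

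Of the genes interleukin 21 induces through STAT3, 6 were tested at 12 h and 7 at 24 h. Batf, an AP-1 family factor, rose in DECP over DECN cells at 12 h (log2 change 2.25, SE 0.24, adjusted p = 0.0125) and at 24 h (1.17, SE 0.23, adjusted p = 0.0146). Junb rose at 12 h (1.70, SE 0.31, adjusted p = 0.0404), and its 24 h change minus its 12 h change was called lower (-1.97, SE 0.35, adjusted p = 0.0114). For DECP over DECN the list held 2 calls higher and 0 lower at 12 h, with a median of 1.27. At 24 h it held 1 higher and 1 lower, with a median of -0.28 and 3 of 7 genes above 0. Of all genes 2.89% were called at 12 h, 4.04% at 24 h and 1.31% for rapamycin-treated DECP over DECN. Rapamycin-treated DECP over DECN cells gave 0 higher and 1 lower (median 0.31), and over DECP cells limma called 0, with 2 genes at an unadjusted p below 0.05 (median 0.13).

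**Figure D4:**
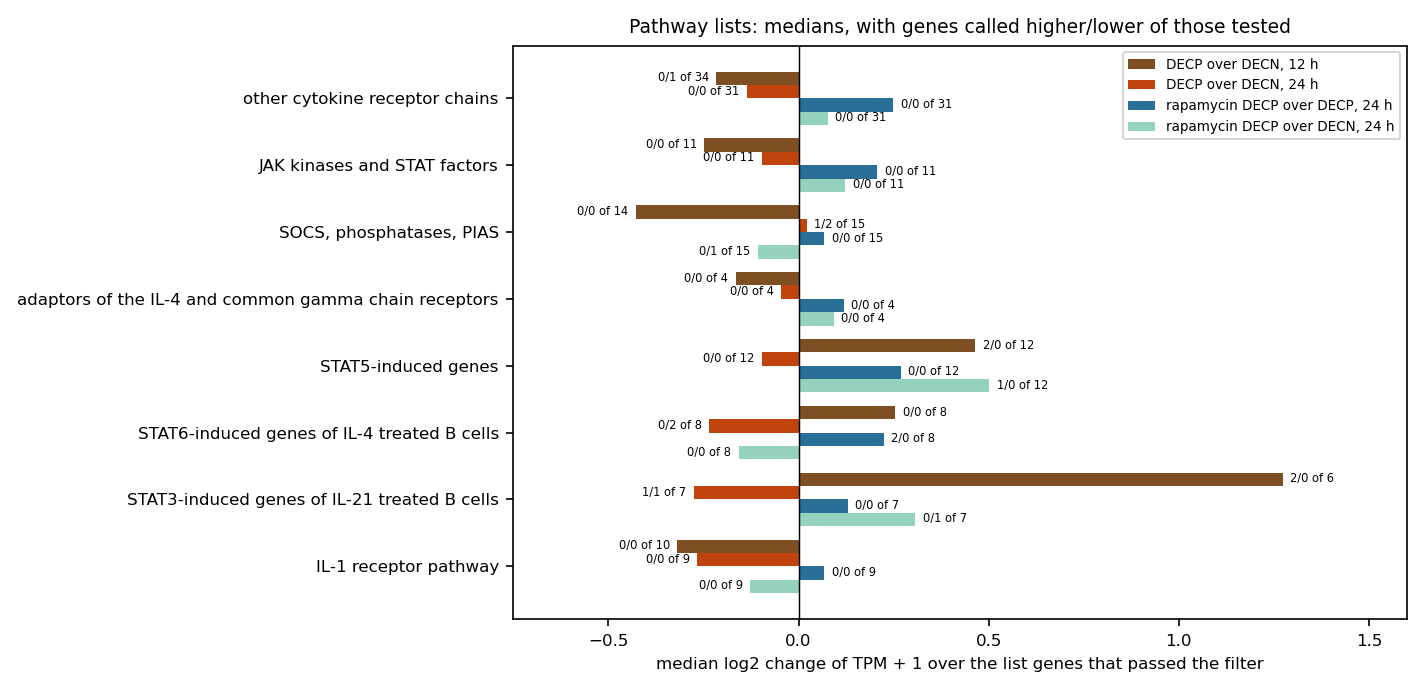
Median log2 change of TPM + 1 (horizontal axis) over the genes of each pathway list that passed the filter, 1 bar for each of the 4 comparisons, labelled with the genes called higher and lower of those tested. JAK kinases and STAT factors hold 0 calls of 11 in each comparison. At 24 h the STAT6 list holds 2 lower calls of 8 for DECP over DECN and 2 higher calls of 8 for rapamycin-treated DECP over DECP. Of all genes 1.32% and 0.657% were called in those directions.

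The genes whose pattern over the 5 group means was closest to a member were found among 7345 genes with a mean of at least 5 TPM in both tables. The measure was the root mean square distance of log2(TPM + 1), centred within each table. Crlf2 failed the filter at 12 h and Cish at 24 h, so neither was searched. With only 5 group means and 7345 genes, close matches can arise without any link, and no link was tested. Coq8a (0.0173), Mgat1 (0.0868) and Gtpbp2 (0.0869) were closest to Fcer2a, and Atg12 (0.0524), Hltf (0.0633) and Trip11 (0.0637) to Il4i1. Nearest to Pim1 were Ift140 (0.0320), Tspan5 (0.0360) and Tmem230 (0.0388). Nearest to Il1r2 were Ccnd2 (0.318), Prmt1 (0.423) and Ankrd33b (0.500), at much larger distances. Vars (0.0286), Galt (0.0294) and Brf1 (0.0296) were closest to Il4ra, Ankle1 (0.0192), Tbrg4 (0.0258) and Fnta (0.0262) to Il21r. Il2rg had Kmt2b (0.0141), Tfeb (0.0287) and Ptges3l (0.0355), and Socs1 had Tnip1 (0.0417), Zfp35 (0.0421) and Rab12 (0.0462).

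The authors' deposited table for DECP and DECN at 24 h gives an adjusted p below 0.05 for 4 of the 9 members that have one, Crlf2 (0.0029), Fcer2a (0.000361), Il4i1 (0.00361) and Pim1 (0.00172), where 9.1% of its genes do. Mean normalized counts in the authors' deposited table were 30.1 in DECP and 75.6 in DECN cells for Crlf2, and 1406 in DECP and 899.7 in DECN cells for Pim1. At 12 h the authors' deposited table has 1 such member of 9, Il1r2 (6.16e-07), among 10.7% of genes, with mean normalized counts of 168 in DECP and 4.93 in DECN cells. For rapamycin-treated DECP and DECP cells the authors' deposited table has 3 such members of 8, Crlf2, Fcer2a and Il4i1, among 7.58% of genes. For rapamycin-treated DECP and DECN cells the authors' deposited table has 1 of 9, Pim1, among 4.38% of genes.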

How the data were processed

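Libraries were made from sorted cells with Nextera XT, per the labels' protocols, and quantified with kallisto 0.43.0 on GRCm38, per the submitters' processing notes. The authors deposited a score per gene and library that is TPM plus 1, per the file headers, with a minimum of exactly 1, in a table of 6 libraries at 12 h and a table of 12 at 24 h. The tables are separate, so groups were compared within a table. Subtracting 1 gave TPM, which keeps no depth, so the depth of single libraries is unknown. The authors also deposited comparison tables with mean normalized counts (a signal pooled over libraries), log2 changes and p-values; no source used here names their tool. The sums of their mean normalized counts were 17314931 (DECP) and 17673356 (DECN) at 12 h, and 6644095 (rapamycin-treated DECP), 7029809 (DECP) and 6822477 (DECN) at 24 h.

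Values were tested with limma 3.58.1 in R 4.3.3 (intensity trend, empirical Bayes, two-sided) on log2(TPM + 1), a scale that understates changes of low genes. Genes needed a TPM of at least 1 in as many libraries as the smallest group, p-values were adjusted by Benjamini-Hochberg over all genes tested, and the threshold was 0.05. The 12 h libraries were fitted alone, the 12 at 24 h in 1 fit, and the difference between times over all 18. The pipeline was run on simulated data with planted changes, and the check was only on the size of the estimated changes. It was no check of the rate of false calls in these data. Ly75 was tested with exact permutation (scipy 1.17.1). Gene coordinates are from GENCODE M21 (30123 of 30452 identifiers found), sequences from RefSeq. The members and lists were chosen with earlier results of these data known. All members were named, with up to 4 called genes per list and comparison and the 3 nearest genes per member. Nup62, Tbc1d17, Gm20489, Il1r1, Il7r, Il4, Jak1, Stat6 and the marker genes were named after their values were seen. Alternatives covered pseudocount, filter, scaling, trend, replicate block, second index, the groups fitted and each library left out. One gene of the lists is not reported here.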

Additional observations from a re-analysis of the deposited data

Results flagged for a closer look

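Fcer2a was picked out because its DECP over DECN difference changed between the times. The 24 h log2 change minus the 12 h log2 change was -1.499 (SE 0.33, limma adjusted p = 0.0424). Its level was 183 ± 37.1 TPM in DECP cells, against 133 ± 15.99 TPM in DECN cells at 12 h (n = 3 each), and 42.1 ± 6.87 TPM in DECP cells, against 88.3 ± 13.6 TPM in DECN cells at 24 h (n = 4 each). Over the alternatives the difference ranged from -1.68 to -1.40, with adjusted p from 0.0249 to 0.112. The 12 h and 24 h libraries stand in separate tables, so time and table cannot be told apart. In 30 groups of 4 libraries, 1 for each member and 24 h group, no single library lay far from the other 3, where chance would give about 1 in 20.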

How the results depend on the processing

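The number of genes called depended on the processing. For DECP over DECN at 12 h it was 388, and 31 with no filter, 595 with a filter at 5 TPM, 103 with no intensity trend and 0 to 91 leaving out 1 library (0 without DECP replicate 1 or DECN replicate 1, where 2551 and 2169 genes had an unadjusted p below 0.05). At 24 h it was 517, and 322 with no filter, 182 with no trend and 273 to 542 leaving out 1 library. For rapamycin-treated DECP over DECP it was 279, and 162 with no filter, 130 with quantile scaling, 139 with TPM rescaled without immunoglobulin, mitochondrial and ribosomal protein genes, 140 with only the groups compared, 0 with no trend (1656 at an unadjusted p below 0.05) and 101 to 278 leaving out 1 library. For rapamycin-treated DECP over DECN it was 167, and 52 with no filter, 103 with quantile scaling, 106 with median centring, 22 with no trend and 32 to 168 leaving out 1 library. For the difference between times it was 117, and 187 with quantile scaling, 30 with rescaled TPM, 59 with no trend and 68 to 138 leaving out 1 library. Scaling moved the share called higher from 67.3% to 51.2% (quantile) for DECP over DECN at 24 h. With rapamycin over DECP it was 30.1%, and 58.5% (quantile), 18.6% (centring) and 46.8% (rescaled). Over DECN it was 59.3%, and 47.6%, 38.7% and 72.3%. For the difference between times it was 24.8%, and 43.3% with rescaled TPM. Rescaling moved the median of all genes to 0.10 for rapamycin-treated DECP over DECN. The cause of these shifts was not tested.

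Of the members, 1 was called at 12 h, and 0 with no filter or 0 to 1 leaving out 1 library. For DECP over DECN at 24 h 2 were called, and 1 with no filter, 4 with the 5 TPM filter, 0 with no trend (5 at an unadjusted p below 0.05) and 0 to 3 leaving out 1 library. With rapamycin over DECP 3 were called, and 1 with no filter, 0 with no trend (3 at an unadjusted p below 0.05) and 1 to 3 leaving out 1 library. With rapamycin over DECN 1 was called, and 0 with no trend or 0 to 1 leaving out 1 library. For the difference between times 1 was called, and 0 with no filter, median centring, rescaled TPM or no trend, or 0 to 1 leaving out 1 library. Of the alternatives run, calls were kept under 8 of 15 for Il1r2 at 12 h, under 19 and 10 of 23 for Fcer2a and Il4i1 in DECP over DECN at 24 h, under 22, 14 and 15 of 23 for Crlf2, Fcer2a and Il4i1 with rapamycin over DECP, under 15 of 23 for Pim1 with rapamycin over DECN, and under 9 of 27 for the Fcer2a difference between times. Signs of members turned under the alternatives for these small changes: at 12 h Cish gave 0.073 with quantile scaling and -0.21 to 0.028 leaving out 1 library, Il4i1 gave -0.045 with quantile scaling, -0.015 with centring and -0.059 to 0.064, and Il2rg gave -0.26 to 0.047. At 24 h Il21r gave -0.079 with quantile scaling and -0.016 to 0.12. With rapamycin over DECP, Il4ra gave -0.042 to 0.31 and Il1r2 -0.011 to 0.85. Over DECN, Fcer2a gave 0.035 with quantile scaling, 0.074 with rescaled TPM and -0.20 to 0.13, and Il2rg gave 0.020, 0.059 and -0.19 to 0.21. The Pim1 difference between times gave 0.064 with centring and -0.11 to 0.17. Leaving out 1 library gave Ly75 log2 changes of 1.14 to 1.48 for DECP over DECN and 0.96 to 1.32 for rapamycin-treated DECP over DECN at 24 h.

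Deviations of libraries with the same replicate number had correlations of -0.003 to 0.053 over 3 pairs at 12 h and -0.057 to 0.092 over 12 pairs at 24 h. Rapamycin-treated and untreated cells came from different hosts, so pairs across them could not share a host. The remaining pairs are too few to decide whether the numbers mark shared hosts. At 24 h DECP and DECN libraries of the same number always carried different second indices, so number and index are mixed there. With the replicate number as a block, the genes called were 0 at 12 h (2662 at an unadjusted p below 0.05), 344 for DECP over DECN at 24 h, 98 for rapamycin-treated DECP over DECP, 41 over DECN and 65 for the difference between times, and the members called were 0 at 12 h, 0 for rapamycin-treated DECP over DECN and 0 for the difference between times. The block ended the calls of Il1r2 at 12 h (adjusted p = 0.0658), Fcer2a with rapamycin over DECP (0.0681), Pim1 with rapamycin over DECN (0.0802) and the Fcer2a difference between times (0.112). In the comparisons with rapamycin the block cannot stand for a shared host. These alternatives were run for the members, Ly75 and the counts of genes, and not for single genes of the pathway and marker lists. The depth of single libraries is unknown, which limits what can be said of Cish, Crlf2 at 12 h and Il1r2 in DECN cells.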
